A study of Mus musculus with 24 samples.

Results

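The imprinted genes *Zdbf2*, *Meg3*, *Rian*, *Mirg*, *Peg3*, *Ndn*, *Magel2*, *Nnat*, *Peg10* and *Cdkn1c* were followed through 12 mRNA libraries of the mouse nucleus accumbens (NAc), a region of the ventral striatum that takes part in reward and stress responses. The genes were chosen by symbol and matched by Ensembl identifier, and 9 of the 10 were found among the 38293 genes of the count table. *Rian* was not analysed here. C57BL/6J mice, 9 weeks old by the labels, formed 4 groups, which were unstressed males, males exposed to subchronic variable stress (SCVS), unstressed females and females exposed to SCVS. SCVS is a series of alternating foot shock, tail suspension and restraint given over 6 days, and the punches were taken 24 h after its end. Each group held 3 libraries, and each library was made from 10 punches pooled from 5 mice, so that the replicates are pools and the spread between mice was not measured. All females, stressed and unstressed, were in estrus or proestrus, and no animal carried a genetic change. The stress comparison asked how SCVS changed expression within a sex, and the comparison of the sexes asked whether that change differed between males and females.

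An imprinted gene is transcribed mainly from the copy inherited from one parent, because a nearby control region carries DNA methylation from only the egg or the sperm. Imprinted genes lie in clusters, and in the brain they are known for roles in growth, feeding, maternal behavior and neuronal survival. Among the genes followed here, *Zdbf2*, *Peg3*, *Ndn*, *Magel2*, *Nnat* and *Peg10* are paternally expressed, and *Meg3*, *Rian*, *Mirg* and *Cdkn1c* are maternally expressed. The mice were inbred and the counts were summed over both copies, so expression from each parental copy was not measured.

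The coordinates that follow are those of NCBIM37, the build to which the authors aligned the mRNA reads. *Zdbf2*, a zinc finger gene linked to feeding in the newborn, lies at chr1:63319839-63361150 on the plus strand. *Peg3*, a zinc finger transcription factor with a role in maternal care, lies at chr7:6656603-6683132 on the minus strand. *Ndn* (necdin) and *Magel2*, MAGE family genes of the Prader-Willi region, are genes of 1 exon each at chr7:69493163-69494814 and chr7:69521865-69526526. *Nnat* (neuronatin), a small membrane protein of the endoplasmic reticulum that affects calcium, lies at chr2:157385814-157388258 on the plus strand within *Blcap*, which is read from the other strand. *Peg10*, a retrotransposon-derived gene, lies at chr6:4697306-4710514 on the plus strand, and *Cdkn1c*, an inhibitor of cyclin-dependent kinases, lies at chr7:150644255-150646955 on the minus strand. *Meg3*, a long noncoding RNA, lies at chr12:110779211-110809936 on the plus strand, and *Rian* and *Mirg* are noncoding RNAs further along the same strand that carry small nucleolar RNAs and miRs. Of the exon bases of *Meg3*, 1402 are shared with *Gm17639*, *Mir1906-1* and *Mir770*, and *Zdbf2* and *Nnat* share 99 and 87 exon bases with genes of the other strand. The library kit does not mark strand, so reads from these shared bases cannot be told apart. The counts given here for *Mirg* are those of ENSMUSG00000097391, which the study's annotation names after mir-410. RefSeq lists mir-410 as a synonym of *Mirg*, and this synonym is the only link between that identifier and the gene.

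The RefSeq table of the mouse build GRCm38.p6 held 10 promoter windows for 8 of the 10 genes, each running from 250 bases before a start site to 50 bases after it. The windows of *Peg3*, *Meg3* and *Zdbf2* that hold the cAMP response element TGACGTCA, the palindrome bound by CREB, are shown. These genes were called lower in stressed males. *Magel2*, *Nnat* and *Mirg* were called lower as well, and their windows lack TGACGTCA. *Peg10*, also called lower, had no window. A link between this element and the male values was not tested. Capitals mark TGACGTCA and, on either strand, the hexamer TGCCGC that is the core of the motif of ZFP57, a factor that keeps imprints. They are written 5′ to 3′ on the strand of the gene.
Peg3 (chr7:6730370-6730669, minus strand): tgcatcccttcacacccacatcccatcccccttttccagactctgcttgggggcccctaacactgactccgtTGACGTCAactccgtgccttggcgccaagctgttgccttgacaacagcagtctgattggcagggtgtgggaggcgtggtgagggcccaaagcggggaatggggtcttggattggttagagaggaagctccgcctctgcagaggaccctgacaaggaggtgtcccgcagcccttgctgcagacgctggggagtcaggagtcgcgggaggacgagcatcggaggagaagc
Meg3, first start site (chr12:109540746-109541045, plus strand): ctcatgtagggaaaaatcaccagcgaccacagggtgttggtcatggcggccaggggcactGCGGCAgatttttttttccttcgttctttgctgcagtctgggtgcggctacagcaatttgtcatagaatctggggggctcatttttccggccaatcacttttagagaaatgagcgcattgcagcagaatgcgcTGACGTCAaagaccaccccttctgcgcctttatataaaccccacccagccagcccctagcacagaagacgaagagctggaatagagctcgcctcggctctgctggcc
Zdbf2, second start site (chr1:63273019-63273318, plus strand): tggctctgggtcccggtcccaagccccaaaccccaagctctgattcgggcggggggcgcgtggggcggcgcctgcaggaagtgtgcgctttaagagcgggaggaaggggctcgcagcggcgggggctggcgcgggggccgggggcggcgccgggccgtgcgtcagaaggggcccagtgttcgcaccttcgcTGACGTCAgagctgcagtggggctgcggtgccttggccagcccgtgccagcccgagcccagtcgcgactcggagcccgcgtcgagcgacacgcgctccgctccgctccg

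TGACGTCA was present in 3 of the 10 windows, and it was present in 1.79% of all 32851 promoter windows in the table. It was added to the search after it had been seen in the window of *Peg3*, so this share is a description. TGCCGC was present on either strand in windows of *Zdbf2*, *Meg3* and *Nnat*, against 11.6% of all windows. The YY1 motif GCCATNTT was present in none of the 10 windows and in 6.05% of all windows. The palindromic glucocorticoid response element was likewise present in none, against 0.00913% of all windows. These are matches of letters in a window of 300 bases, and binding was not measured.

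The mRNA libraries held between 41076780 and 60867747 counted reads. Of all genes, 18593 passed the filter for low counts (above 5 reads in 80% or more of one group's libraries), and all 9 imprinted genes found in the table were among them. Marker genes of striatal medium spiny neurons, the main neurons of the NAc, summed to between 5645 and 7085 CPM in every library, where CPM is edgeR's read count scaled to library size. Markers of cortical glutamatergic neurons summed to between 51.1 and 69.7 CPM in unstressed males, 93.6 and 250 in stressed males, 67.4 and 422 in unstressed females, and 86.6 and 163 in stressed females. Hemoglobin and other red blood cell markers summed to between 21.8 and 27.4 CPM in unstressed males, 38.5 and 47.2 in stressed males, 29.8 and 38.9 in unstressed females, and 28.8 and 31.9 in stressed females. Choroid plexus markers summed to 112 CPM in unstressed male replicate 1 and to between 34.1 and 45.6 CPM in the other libraries. The markers of hypothalamic neurons, cells that express several of these imprinted genes strongly, summed to no more than 16.5 CPM, and *Hcrt*, *Pmch*, *Avp*, *Oxt*, *Sim1* and *Otp* were each at a mean of under 5 reads.

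Levels of the genes in the NAc were compared per kilobase of exon, in unstressed males. *Meg3* was the most abundant, with 206 ± 48.5 CPM per kb (SD, n = 3 libraries), and *Nnat* followed with 156 ± 12.9. Over all 12 libraries their means were higher than those of 99.1% and 98.6% of the tested genes. *Ndn* with 55.8 ± 0.725, *Peg10* with 54.0 ± 8.55 and *Peg3* with 44.5 ± 1.66 CPM per kb came next. *Ndn* and *Peg10* did not differ beyond their spread. The SDs of *Meg3* and *Nnat* overlapped, but *Meg3* was above *Nnat* in each of the 3 libraries. *Zdbf2* had 10.7 ± 0.306 CPM per kb. *Magel2* with 1.76 ± 0.629 and *Cdkn1c* with 0.776 ± 0.0965 CPM per kb were the lowest, with 12-library means above 33.0% and 25.4% of the tested genes. No exon length was at hand for the identifier that stands for *Mirg*.

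After SCVS 7 of the 9 imprinted genes were called lower in males by the thresholds of the study, a fold change of at least 1.3 with p under 0.05 before adjustment, and none was called higher. Over all tested genes, 4.08% were called lower by these thresholds. The genes had been named with this comparison known, so that the values below are a description and nothing is read from the count. The median log2 fold change of the 9 genes was -0.49, beside -0.01 over all tested genes. In 7 of the 9 genes all 3 stressed libraries lay below all 3 unstressed ones, which was the case in 11.7% of all tested genes. In pooled tissue a loss of the cells that express a gene and less RNA per cell cannot be told apart.

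Of the zinc finger genes, *Zdbf2* had 131, 139 and 136 CPM in the 3 unstressed male libraries and 96.3, 92.0 and 89.7 CPM in the 3 stressed ones. Its unstressed male libraries lay above the other 9 libraries, and its log2 fold change with SCVS was -0.55 (SE 0.07). *Peg3* had 596, 570 and 614 CPM without stress and 450, 442 and 448 CPM after SCVS, which is a log2 change of -0.41 (SE 0.06). Its 3 stressed male libraries were tightly grouped and lay below every other library. *Nnat* had 258, 301 and 295 CPM in unstressed and 216, 194 and 201 CPM in stressed males, with a log2 fold change of -0.48 (SE 0.07). The male groups of *Nnat* did not overlap, although stressed female replicate 3 was as low as the stressed males.

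*Peg10* had 367, 300 and 413 CPM in unstressed males and 275, 197 and 173 CPM in stressed males, which is a log2 change of -0.76 (SE 0.18). As with *Zdbf2*, the unstressed male libraries lay above the other 9. *Magel2*, whose protein assists a ubiquitin ligase in endosomal recycling, had 6.90, 6.12 and 11.5 CPM without stress and 3.75, 3.23 and 3.54 CPM after SCVS. Its log2 fold change of -1.17 (SE 0.28) was the largest of the 9, and its stressed male libraries lay below all others. *Ndn*, its neighbor, had 92.0, 93.5 and 91.1 CPM without stress and 85.3, 81.7 and 90.3 CPM after SCVS. The male groups of *Ndn* did not overlap, but the log2 fold change was -0.11 (SE 0.10) and was not called. *Cdkn1c* had 1.29, 1.65 and 1.56 CPM in unstressed males and 1.21, 1.13 and 1.22 CPM in stressed males. The log2 fold change of *Cdkn1c* was -0.32 (SE 0.17) and was not called, although its stressed male libraries again lay below all others.

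The noncoding RNAs of the *Dlk1-Dio3* domain were called but their groups overlapped. *Meg3* had 3425, 3039 and 4715 CPM in unstressed males and 2266, 2224 and 3511 CPM in stressed males, which is a log2 change of -0.49 (SE 0.17). *Mirg* had 20.2, 20.2 and 28.5 CPM without stress and 13.1, 12.5 and 20.3 CPM after SCVS, which is a log2 change of -0.60 (SE 0.17). In both genes replicate 3 was the highest library of each male group. Without unstressed male replicate 3, *Meg3* changed by a log2 fold of -0.30 and was not called, and *Mirg* changed by -0.43 and was called. *Meg3* was also not called without stressed male replicate 1 or replicate 2, and *Peg3* moved to -0.38, just under the fold threshold, without unstressed male replicate 3. *Mirg* and the other 4 called genes were called whichever of the 12 libraries was left out.

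**Figure D1:**
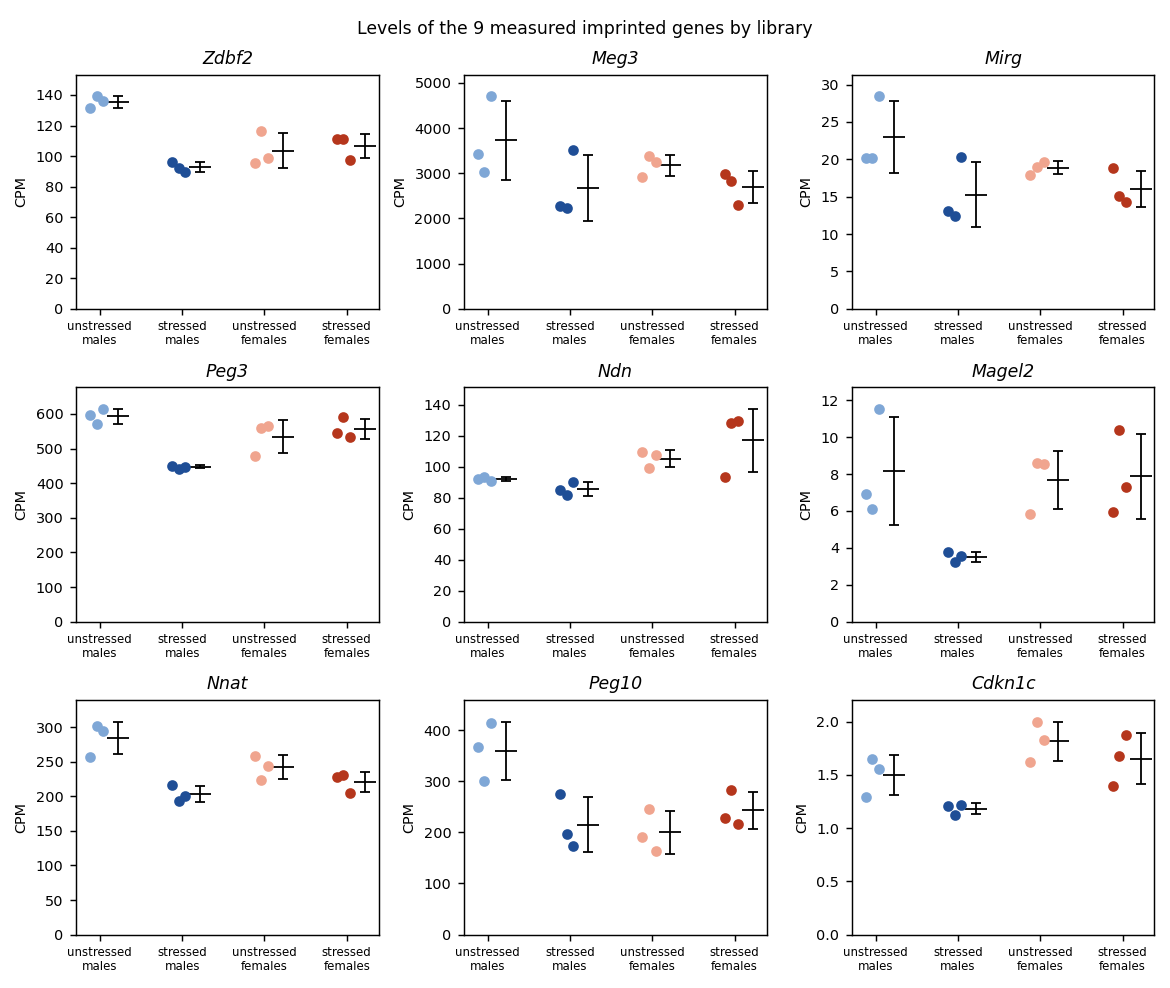
Levels of the 9 imprinted genes in CPM (vertical axes, from 0) in the 12 mRNA libraries of the 4 groups (horizontal axes). Points are libraries, and bars beside them are the mean and SD of 3 libraries; the unstressed males lie above the other groups in *Zdbf2* and *Peg10*, and the stressed males lie below them in *Peg3*, *Ndn*, *Magel2* and *Cdkn1c*.

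Markers of other cells moved with the male groups. Cortical and red blood cell markers were both higher in all 3 stressed male libraries than in the unstressed ones, with 3 of 10 cortical and 5 of 5 red blood cell markers called higher (2.36% of all tested genes were called higher). Across the 12 libraries, which share their groups, *Zdbf2* and *Peg10* had a Pearson r of -0.874 and -0.863 with the mean of the cortical markers. With the red blood cell markers *Peg3* and *Magel2* had -0.941 and -0.856. The other called genes had -0.546 to -0.257 with the first list and -0.778 to -0.561 with the second. With the group means taken out the 4 named values were -0.899, -0.633, -0.681 and -0.689. The others then ran from -0.23 to 0.25 and from -0.541 to 0.418. With the mean log2 level of the cortical markers as a term in the model, 4 of the 9 imprinted genes were called lower, and 7.04% of all tested genes were called in either direction. *Magel2* was then at a log2 fold change of -1.15, *Mirg* at -0.74, *Meg3* at -0.59 and *Nnat* at -0.48, close to or beyond their values without the term. *Peg10* was then at -0.37 and *Zdbf2* at -0.35, and *Peg3* at -0.37, and none of these was called. In only the 7 libraries whose cortical markers summed to less than 100 CPM, stressed male replicate 1 was alone in its group, as was unstressed female replicate 2, and both were assumed to vary like the libraries of the other groups. In that fit 6 of the 9 genes were called lower, beside 3.89% of all tested genes, and *Peg10* with -0.37 was not. With red blood cell markers as a term, under which 4.65% of all tested genes were called in either direction, *Zdbf2* at -0.50 and *Nnat* at -0.68 were called, *Peg10* at -0.78 was not, and *Meg3* at 0.21 and *Magel2* at 0.32 changed sign without being called. The red blood cell sums of the male groups did not overlap, so this term and the effect of SCVS in males can hardly be told apart. The cortical sums of the male groups did not overlap either, so the same limit holds for the cortical term. With the choroid plexus markers as a term 8 of the 9 genes were called, *Cdkn1c* among them, and so were 8.31% of all tested genes in either direction. The same 8 were called without unstressed male replicate 1, the library high in choroid plexus markers. The share of all tested genes in that fit is not given here, so this count is a description.

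**Figure D2:**
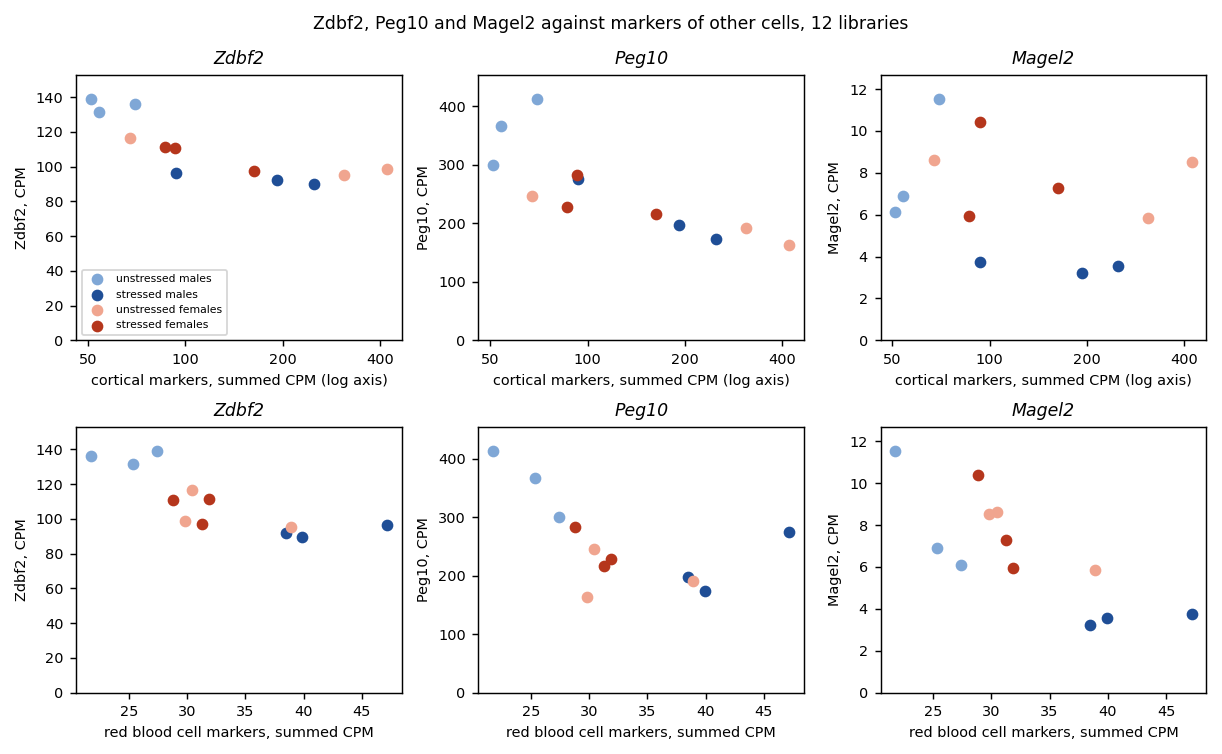
Levels of *Zdbf2*, *Peg10* and *Magel2* in CPM (vertical axes) against the summed CPM of cortical markers (top, log axis) and of red blood cell markers (bottom), with one point for each of 12 libraries. *Zdbf2* and *Peg10* are highest in the unstressed males, whose cortical sums of 51.1 to 69.7 CPM are among the 4 lowest, and *Magel2* is at 3.23 to 3.75 CPM in the stressed males whatever their cortical sum.

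In females none of the 9 imprinted genes was called after SCVS by the same thresholds, against 1.73% of all tested genes in either direction, and the female groups overlapped in every one of the 9. Stressed females lay above unstressed ones without overlap in 4.9% of all tested genes and below them in 6.41%. By unadjusted p alone none was called in limma, and none was called in edgeR or DESeq2. *Zdbf2* had 95.3, 116 and 98.7 CPM in unstressed and 111, 111 and 97.3 CPM in stressed females, which is a log2 change of 0.04 (95% interval -0.11 to 0.20). *Peg3* had 479, 558 and 564 CPM without stress and 545, 591 and 534 CPM after SCVS, which is a log2 change of 0.06 (-0.07 to 0.20). *Magel2* had 5.84, 8.61 and 8.54 CPM without stress and 5.93, 10.4 and 7.30 CPM after SCVS. Its log2 fold change was 0.02, with a wide interval from -0.49 to 0.52.

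*Peg10* had 191, 246 and 164 CPM in unstressed and 229, 283 and 217 CPM in stressed females, which is a log2 change of 0.29 (95% interval -0.09 to 0.66). Without unstressed female replicate 2 it reached 0.45 and was called higher. *Nnat* had 259, 224 and 244 CPM without stress and 228, 231 and 205 CPM after SCVS, which is a log2 change of -0.13. *Ndn* had 110, 99.1 and 108 CPM without stress and 93.3, 128 and 130 CPM after SCVS, so that replicate 1 lay below both other stressed female libraries and below the unstressed ones. *Meg3* had 2919, 3372 and 3253 CPM in unstressed and 2988, 2820 and 2300 CPM in stressed females, and its log2 fold change of -0.24 (-0.62 to 0.13) had the direction seen in males. *Mirg* followed with -0.24, from 17.9, 18.99 and 19.7 CPM to 18.8, 15.1 and 14.3 CPM. *Cdkn1c* had 1.62, 2.00 and 1.83 CPM without stress and 1.40, 1.68 and 1.88 CPM after SCVS, which is a log2 change of -0.15.

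**Figure D3:**
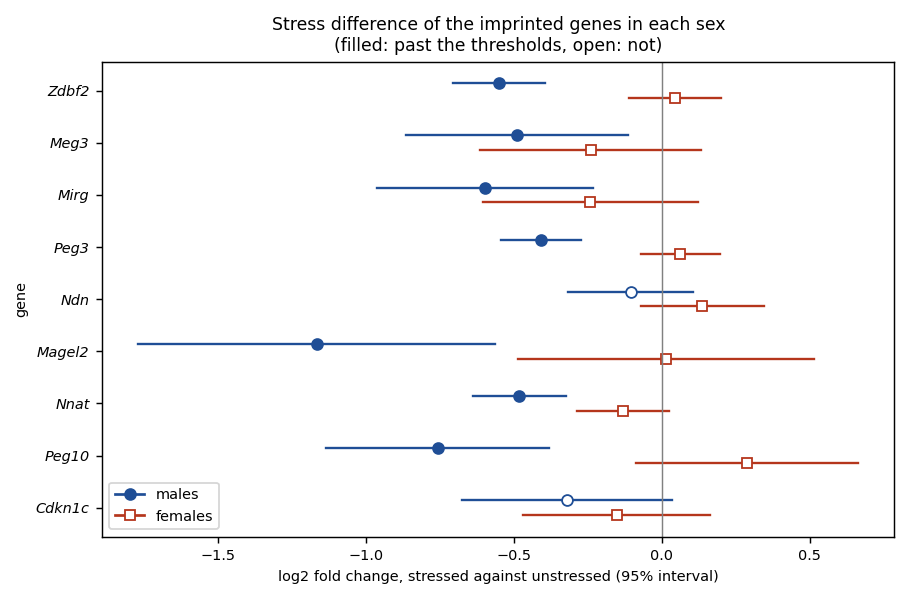
Log2 fold change of stressed against unstressed mice (horizontal axis) for each of the 9 imprinted genes in males (blue) and females (red). Lines are 95% intervals from limma, and filled symbols passed the thresholds; all 9 male values lie below 0 and the female values lie between -0.24 and 0.29.

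The difference between the stress effects of the sexes, female minus male, was above 0 for all 9 genes and was called for 4 of them, while 2.25% of all tested genes were called higher in this comparison. These 4 were *Magel2* with a log2 difference of 1.18 (SE 0.36), *Peg10* with 1.05 (SE 0.25), *Zdbf2* with 0.59 (SE 0.10) and *Peg3* with 0.47 (SE 0.09). *Nnat* had 0.35 (SE 0.10), under the fold threshold. *Mirg* with 0.36, *Meg3* with 0.25, *Ndn* with 0.24 and *Cdkn1c* with 0.17 were not called. This comparison uses all 12 libraries and so shares them with the stress comparisons of each sex. The 4 called genes were called in every fit that left out one library. In the same comparison 7 of 10 cortical and 5 of 5 red blood cell markers were called lower, beside 2.17% of all tested genes. With the cortical marker term *Peg3*, *Ndn* and *Magel2* were called (3.18% of all tested genes in either direction), and with the red blood cell term *Zdbf2* and *Nnat* (6.3%).

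Unstressed females had less *Zdbf2* and *Peg10* than unstressed males, and these were the 2 called genes of the 9 in that comparison (1.15% of all tested genes were called lower in females). *Peg10* differed by a log2 fold of -0.85 (SE 0.18) and *Zdbf2* by -0.39 (SE 0.07). For both, unstressed females overlapped with stressed males and stressed females, and it was the unstressed males that stood above the other 9 libraries, as 2.3% of all tested genes did. In 4 of the 9 genes, *Zdbf2*, *Mirg*, *Peg3* and *Peg10*, all unstressed females lay below all unstressed males, as they did in 8.45% of all tested genes. *Ndn* was the 1 gene in which they lay above, as in 11% of all tested genes, by a log2 fold of 0.19 (SE 0.10), but was not called. Cortical markers were higher in unstressed females as well, with 6 of 10 called higher (4.17% of all tested genes), and with the cortical term neither *Zdbf2* nor *Peg10* was called (2.41% of all tested genes were, in either direction). With the hypothalamic term *Peg10* at -0.72 and *Mirg* at -0.43 were called and *Zdbf2* at -0.34 was not (3.15%). With the red blood cell term *Peg10* at -0.86 and *Magel2* at 0.65 were called and *Zdbf2* at -0.37 was not (8.55%). Unstressed female replicate 2 had the lowest cortical sum of its group, 67.4 CPM, and the highest *Zdbf2* and *Peg10*, 116 and 246 CPM. *Zdbf2* was not called without unstressed male replicate 2 or unstressed female replicate 1 or 3. The unstressed males of this comparison are those of the male stress comparison.

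Stressed females had more *Magel2*, *Ndn* and *Cdkn1c* than stressed males, by log2 folds of 1.14 (SE 0.28), 0.43 (SE 0.10) and 0.47 (SE 0.17). These 3 genes were called higher, as were 4.58% of all tested genes. In 5 of the 9 genes, *Zdbf2*, *Peg3*, *Ndn*, *Magel2* and *Cdkn1c*, all stressed female libraries lay above all stressed male ones, against 12.8% of all tested genes. In *Peg3*, *Ndn*, *Magel2* and *Cdkn1c* the stressed males lay below the other 9 libraries, as 2.9% of all tested genes did. Ordered by mean, the groups of *Magel2* ran from 3.51 CPM in stressed males to 7.66 in unstressed females, 7.88 in stressed females and 8.19 in unstressed males, and the last 3 did not differ beyond their spread. The order of *Zdbf2* was 92.7 CPM in stressed males, 103 in unstressed females, 106 in stressed females and 136 in unstressed males, and the female groups did not differ beyond their spread. *Ndn* was not called without stressed female replicate 2 or 3, nor *Cdkn1c* without stressed male replicate 2 or stressed female replicate 3. Hypothalamic markers summed to between 9.02 and 11.1 CPM in stressed males and 9.62 and 16.5 CPM in stressed females, and 2 of the 4 tested were called higher. Of these 4, 1 had the opposite sign, and 1 had all stressed females below all stressed males, as 7.65% of all tested genes did. The sums hold all 10 markers, while the mean and the model term hold only the 4 tested. Across the 12 libraries *Ndn* ran with the mean of these 4 markers with a Pearson r of 0.854 and *Cdkn1c* with 0.664, as a description over libraries that share their groups. With markers of meningeal fibroblasts they had 0.64 and 0.364. After the group means were taken out, *Ndn* had 0.665 with the hypothalamic and 0.898 with the meningeal markers, and *Cdkn1c* had 0.514 and 0.482. With the hypothalamic term *Magel2* at 0.79 was called, and *Ndn* at 0.23 and *Cdkn1c* at 0.28 were not (2.59% of all tested genes in either direction). Of the 5 red blood cell markers, 4 were called lower in stressed females (0.968% of all tested genes). In all 5 the stressed females lay below the stressed males without overlap (7.65%). With the red blood cell term none of the 9 was called in this comparison (2.75%). This comparison shares the stressed males with the male stress comparison.

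Other genes of the same imprinted domains were examined next, and their p values are those of limma adjusted over all tested genes. Of 56 other imprinted genes listed, 52 were in the count table and 47 were tested. In stressed males 5 of the 47 were called lower, beside 4.08% of all tested genes, and none was called higher, beside 2.36%. Their median log2 fold change was -0.09, beside -0.01 over all tested genes. All 5 were among the 25 tested genes that lie in the 7 domains of the 9 genes, and none was among the 22 from other domains. The difference between these sets was not tested. The 7 domains are those of genes named with this comparison known, so nothing is read from the split. Next to *Peg10*, *Asb4*, an ankyrin repeat gene, changed by a log2 fold of -1.08 (SE 0.30, adjusted p = 0.0693) and *Calcr*, the calcitonin receptor, by -0.68 (SE 0.26, adjusted p = 0.16), while *Sgce*, which shares its promoter region with *Peg10*, was at 0.004 (SE 0.07, adjusted p = 0.98). Next to *Peg3*, the zinc finger gene *Zim1* changed by -0.96 (SE 0.27, adjusted p = 0.0688) and *Usp29* by -0.20 (SE 0.08, adjusted p = 0.178).

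In the *Dlk1-Dio3* domain both maternally and paternally expressed genes were lower in stressed males. *Dio3*, the deiodinase that inactivates thyroid hormone, had 5.83, 3.66 and 5.46 CPM in unstressed and 2.82, 2.45 and 2.28 CPM in stressed males. Its log2 fold change of -0.98 (SE 0.20) passed the adjusted threshold (adjusted p = 0.0243, limma). *Dlk1*, a noncanonical Notch ligand, had 160, 143 and 167 CPM without stress and 141, 110 and 103 CPM after SCVS, which is a log2 change of -0.43 (SE 0.12, adjusted p = 0.0632). *Rtl1* and *Begain*, at -0.29 each, were not called (adjusted p = 0.141 and 0.1, limma). In the domain of *Ndn* and *Magel2*, none of the 5 other genes tested was called. *Snrpn* at 0.16 and *Mkrn3* at 0.24 had the opposite sign to *Magel2*, while *Atp10a* at -0.27, *Peg12* at -0.18 and *Ube3a* at -0.13 had the same sign. *Blcap*, the host of *Nnat*, was at -0.11 (SE 0.05, adjusted p = 0.249), and none of 5 neighbors of *Cdkn1c* and none of 2 neighbors of *Zdbf2* was called. Of the 5 genes called lower, *Dio3*, *Asb4* and *Zim1* were called whichever library was left out, but with the red blood cell term *Asb4* at 0.34 and *Zim1* at 0.55 changed sign and none of the 5 was called. *Calcr* was not called without unstressed male replicate 1 or 3 or stressed male replicate 2 or 3, nor *Dlk1* without unstressed male replicate 3 or stressed male replicate 2 or 3. With the cortical term *Calcr* at -0.40 and *Dlk1* at -0.16 were not called, nor was *Calcr* at -0.46 with the choroid plexus term.

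**Figure D4:**
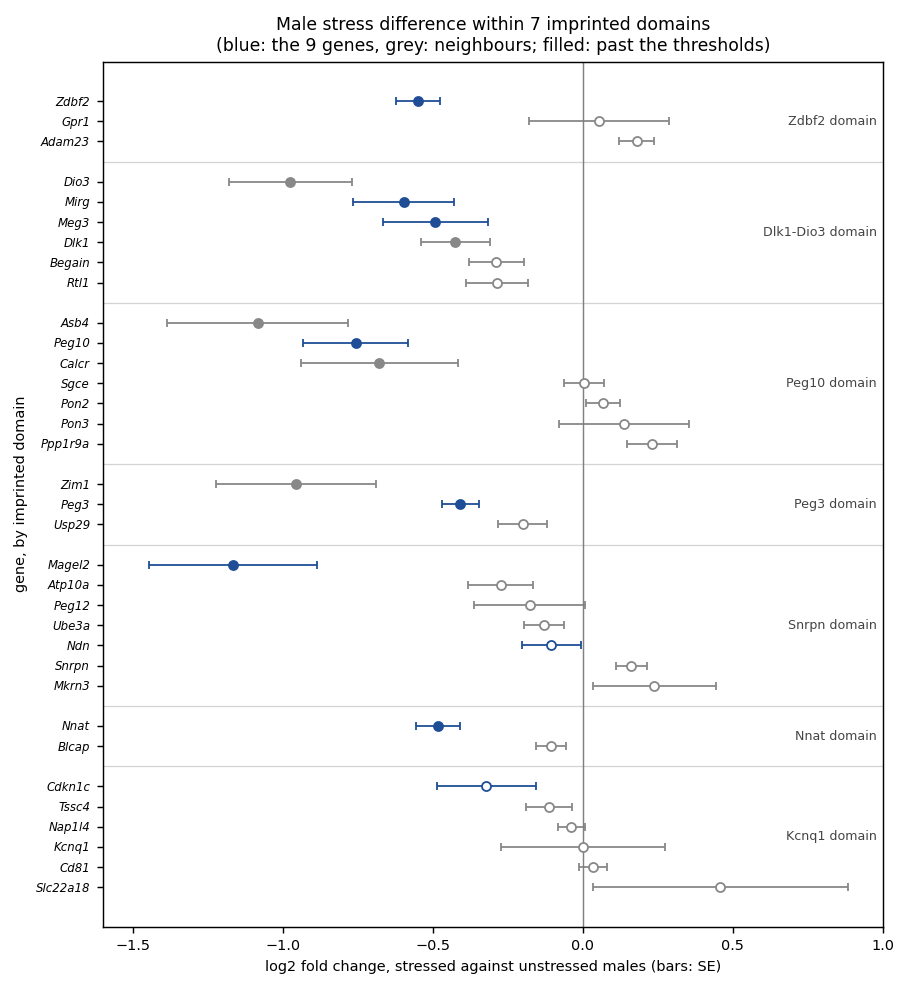
Log2 fold change of stressed against unstressed males (horizontal axis, bars are SE from limma) for the 9 imprinted genes (blue) and the 25 other tested genes of their domains (grey), grouped by domain (vertical axis). Filled points passed the thresholds; *Dio3*, *Dlk1*, *Asb4*, *Calcr* and *Zim1* are the filled neighbors, and *Sgce*, *Snrpn* and *Blcap* stay within 0.2 of 0.

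In females none of the 47 other imprinted genes was called, in edgeR and DESeq2 as in limma, nor did any have an unadjusted p under 0.05 in limma. The female-minus-male difference was called for *Asb4* at 1.05, *Calcr* at 0.93, *Zim1* at 0.93, *Dio3* at 0.91 and *Dlk1* at 0.59, with adjusted p between 0.273 and 0.473 (limma). Like *Peg10*, *Calcr*, *Dlk1* and *Dio3* were lower in unstressed females than in unstressed males, by -0.88, -0.42 and -0.53 (adjusted p = 0.149, 0.127 and 0.195, limma). *Slc22a18*, a transporter gene near *Cdkn1c*, was higher in females than in males both without stress, by 1.01, and after it, by 0.87, at a mean of only 11.9 reads (adjusted p = 0.242 and 0.268, limma). *Gnas*, *Zim1* and *Peg12* were called higher in stressed females than in stressed males, by 0.55, 0.86 and 0.56 (adjusted p = 0.144, 0.14 and 0.14, limma). These 3 calls, that of *Calcr* between the unstressed sexes, and those of *Dlk1* and *Dio3* for female minus male were kept whichever library was left out. The female-minus-male call of *Zim1* was lost without stressed female replicate 2, that of *Asb4* without either of stressed male replicates 1 and 2, unstressed female replicate 1 or stressed female replicate 2, and that of *Calcr* without unstressed male replicate 1 or 3, stressed male replicate 2 or 3, unstressed female replicate 3 or stressed female replicate 2. Between the unstressed sexes the calls of *Dlk1*, *Dio3* and *Slc22a18* were lost without unstressed female replicate 3, that of *Dlk1* also without unstressed male replicate 3, and those of *Dio3* and *Slc22a18* also without unstressed male replicate 1. Between the stressed sexes that of *Slc22a18* was lost without stressed male replicate 1 or 2 or stressed female replicate 1 or 3.

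The genes whose levels ran most like those of the imprinted genes across the 12 libraries were sought among 13110 genes with a mean of at least 100 reads, as a description over libraries that share their groups. *Peg10* was most like *Dlk1*, an imprinted gene of another chromosome, with a Pearson r of 0.981, and of 0.979 after the group means were taken out. *Meg3* was most like *Rbm33* (r = 0.99) and *Srrm1* (r = 0.987), and *Mirg* like *Srsf6* and *Gm11766* (r = 0.978 each) and *Ddx17* (r = 0.977). *Meg3* and *Mirg* themselves ran together with r = 0.967. *Zdbf2* was most like *Slc5a3* (r = 0.972), *Nnat* like the neuropeptide gene *Cartpt* (r = 0.951), *Magel2* like *Prmt2* (r = 0.96) and *Peg3* like *Sgsm1* (r = 0.954). *Cdkn1c* was most like *Trappc5* (r = 0.965) and *Ndn* like *Itpkb* (r = 0.927). The closest pair of the 9 genes other than *Meg3* and *Mirg* was *Peg3* and *Magel2* (r = 0.908).

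The miRs that lie between the start of *Meg3* and the end of *Mirg* were measured in 12 small RNA libraries of 5086554 to 13522287 reads, as counts per precursor. RefSeq placed 57 miRs of the table in this interval, and 46 were tested. For each precursor named below, except mir-493 and mir-3072, 1 or 2 mature products are shown from RefSeq (GRCm38.p6). The seed, bases 2 to 8, is in capitals.
mmu-miR-770-5p: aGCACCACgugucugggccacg
mmu-miR-341-3p: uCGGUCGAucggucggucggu
mmu-miR-543-3p: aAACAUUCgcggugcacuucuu
mmu-miR-487b-5p: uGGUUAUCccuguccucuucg
mmu-miR-154-5p: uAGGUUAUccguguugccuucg
mmu-miR-154-3p: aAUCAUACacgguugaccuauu
mmu-miR-410-3p: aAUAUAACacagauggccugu

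None of these printed products shared a seed with another. While *Meg3* and *Mirg* were called lower in stressed males, 0 of the 46 miRs were called in males by the same thresholds, against 5.2% of all 500 tested miRs. The same count of 0 was found with edgeR and DESeq2. In limma 6 had an unadjusted p under 0.05, most but not all of them lower. The share of all tested miRs at that p is not given here. The study's own list of mature miRs, at the same thresholds, held miR-493-3p as lower in stressed males. Its precursor, mir-493, was at 0.20 (SE 0.13) here. The median log2 fold change of the miRs was -0.05, beside -0.01 over all tested miRs, with 30 of the 46 below 0. In 10 of the 46 all stressed male libraries lay below all unstressed ones, against 11.4% of all tested miRs. mir-770, the 1 tested miR within *Meg3*, had 3390, 3056 and 3460 CPM in unstressed and 2818, 2801 and 2725 CPM in stressed males, which is a log2 change of -0.25 (SE 0.08, adjusted p = 0.181, limma). Its groups did not overlap, but the fold was under the threshold. It and mir-543 were named after their values were seen. mir-410, which lies within *Mirg*, had 1414, 1497 and 1439 CPM in unstressed and 1375, 1400 and 1413 CPM in stressed males, which is a log2 change of -0.05 (SE 0.06, adjusted p = 0.767, limma). The stressed libraries of mir-410 lay just below the unstressed ones, all within a narrow range, whereas those of *Mirg* spread widely. mir-154, also within *Mirg*, was at -0.24 (SE 0.10, adjusted p = 0.332, limma). The largest drop among miRs of over 100 mean reads was that of mir-543 at -0.29 (SE 0.13, adjusted p = 0.351, limma).

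In females 0 of the 46 miRs were called, against 4.8% of all tested miRs, and 2 had an unadjusted p under 0.05 in limma, in opposite directions. The study's list of mature miRs held miR-3072-3p as higher in stressed females, and mir-3072 was not among the precursors tested here. mir-154 was the 1 miR called higher for the female-minus-male difference (3.4% of all tested miRs), at 0.38 (SE 0.15, adjusted p = 0.486, limma), and it was not called by edgeR or DESeq2. Between the unstressed sexes 2 miRs, named after their values were seen, passed an adjusted p of 0.05 without reaching the fold threshold. mir-341 had 423, 459 and 419 CPM in unstressed males and 350, 323 and 332 CPM in unstressed females, which is a log2 change of -0.37 (SE 0.07, adjusted p = 0.0142, limma). mir-487b had 678, 686 and 668 CPM in unstressed males and 538, 532 and 528 CPM in unstressed females, which is a log2 change of -0.35 (SE 0.07, adjusted p = 0.0147, limma). In both miRs the unstressed females lay below all unstressed males, as 11% of all tested miRs did. mir-341 lies within *Rian* and mir-487b between host genes. *Mirg* also had all unstressed females below all unstressed males, with a log2 fold change of -0.26 (SE 0.16) that was not called, and *Meg3* had overlapping levels, with -0.21 (SE 0.18).

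**Figure D5:**
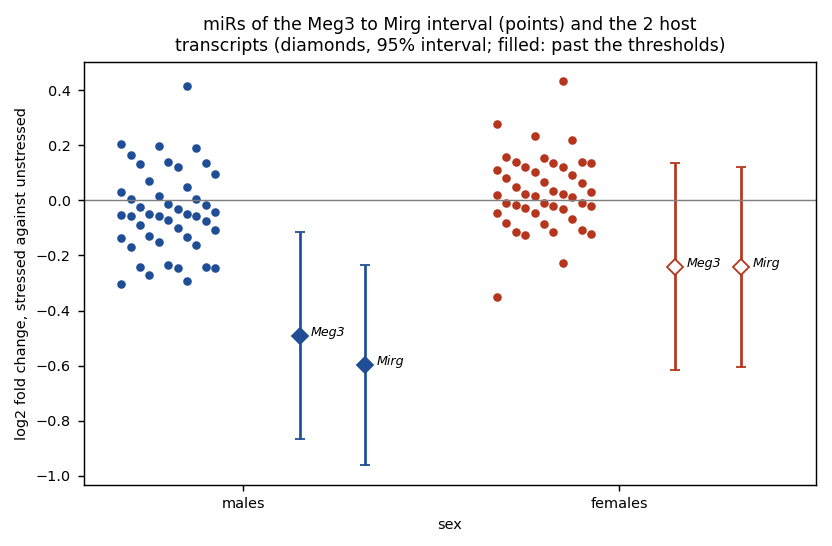
Log2 fold change of stressed against unstressed mice (vertical axis) in males and females for the 46 tested miRs of the *Meg3* to *Mirg* interval (points) and for *Meg3* and *Mirg* (diamonds with 95% intervals from limma). Filled diamonds passed the thresholds; the male miR values scatter around a median of -0.05 and the male *Meg3* and *Mirg* values are -0.49 and -0.60.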

How the data were processed

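The mRNA of 12 libraries and the small RNA of 12 libraries were measured, 3 per group in each assay, and the group of each library came from its label. Paired mRNA reads of 50 bases were aligned by the authors to NCBIM37 (Ensembl version 67) with TopHat2, and the deposited values are raw counts per gene made with HTSeq. The strand setting is not given in the sources used here. Small RNA reads of 16 nucleotides or more were aligned by the authors to mm9 with Bowtie, and the deposited values are raw counts per precursor of miRBase release 21.

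Symbols came from the GENCODE annotation of NCBIM37, in which 33789 of the 38293 identifiers were found, and 148 identifiers were named from the study's sheet. Features passed a filter of over 5 reads in 80% or more of the libraries of any 1 group. They were scaled by TMM and fitted with voom and limma 3.58.1 (R 4.3.3, edgeR 4.0.16), with 4 group means and 5 comparisons. The study's rule for calling was a p under 0.05 without adjustment together with a fold of 1.3 or more. Adjustment was by Benjamini and Hochberg over the tested features of an assay. CPM values are scaled by TMM, and SE and 95% intervals come from limma. The steps were tested on simulated data.

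The genes, lists and tests were chosen with earlier results of these data known. For the 9 genes no p is given, since they were named for these comparisons. Named besides were other imprinted genes and miRs called in any comparison (mean reads of 10 or more), the genes of the same domains, and the 3 genes most like each, of which the first or first few are given. Alternatives included edgeR's quasi-likelihood test and DESeq2 1.42.0, other scalings, filters and thresholds, fits to 6 libraries, a block for the replicate number of the labels, fits without one library, and marker terms. The red blood cell term and the fit to libraries low in cortical markers were added after the data were seen. With 3 pools in each group no exact permutation test of 1 gene can reach a p under 0.05. The p values given set group differences against the spread between pools, not between mice. Plots were drawn with matplotlib 3.10.9.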

Additional observations from a re-analysis of the deposited data

Results flagged for a closer look

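The 9 genes and 26 other imprinted genes, the 25 tested ones of their domains and *Gnas*, were looked at for opposite moves in the sexes. In 1 of the 9 and in 3 of the 26, all 3 stressed libraries of one sex lay below the unstressed mean of that sex and all 3 of the other sex lay above theirs. Over all tested genes 3.07% had stressed males below and stressed females above, and 3.88% the reverse. *Peg10* was lower in each stressed male library and higher in each stressed female library than the respective unstressed mean, with a female-minus-male log2 difference of 1.05. *Dlk1*, with 0.59, *Calcr*, with 0.93, and *Peg12*, with 0.51, showed the same pattern, always with the males lower and the females higher. The difference of *Peg10* (SE 0.25) passed the thresholds for calling, and no p is given because the gene was named with this comparison known. This call of *Peg10* was lost with the cortical term and with the red blood cell term. The cortical markers moved in opposite ways as well, with a median log2 fold change of 2.35 in males and -0.70 in females. Of these 10 markers, 1 was lower in males and 0 were higher in females. Whether this bears on *Peg10* was not tested. For the 3 others the interaction term of limma gave adjusted p = 0.273 for *Dlk1*, 0.473 for *Calcr* and 0.546 for *Peg12*.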

How the results depend on the processing

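Counts of called genes and miRs were compared with their values under each alternative, in the order male stress, female stress, female minus male, unstressed sexes, stressed sexes where several are given. For most alternatives the share of all tested genes is not given here, so the counts are a description. edgeR and DESeq2 kept every count of the 9 genes and of the other imprinted genes within a factor of 1.5, and called 0 in place of 1 cluster miR for female minus male, as did DESeq2 size factors and quantile normalization. Scaling by library size called 2 cluster miRs there and 1 between the unstressed sexes, and quantile normalization called 3 between the unstressed sexes. Testing every miR with at least 1 read called 1 cluster miR in females and 1 between the stressed sexes, and fits to 6 libraries called 2 between the unstressed sexes. With calls by adjusted p and fold, 5 of the 9 genes were called in males (*Zdbf2*, *Peg3*, *Magel2*, *Nnat* and *Peg10*), 0 for female minus male, 1 between the unstressed and 0 between the stressed sexes. Because the 9 genes were named with these comparisons known, their adjusted p is no test, and nothing is read from these counts. The other imprinted genes called were 1 in males (*Dio3*) and 0 in the last 3 comparisons, with 0 cluster miRs for female minus male. With calls by p alone the 9 genes had 4 and 5 calls between the unstressed and stressed sexes, the other imprinted genes 19 in males, then 12, 11 and 11 in the last 3 comparisons, and the cluster miRs 6, 2, 4, 7 and 5.

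With the cortical term 4 of the 9 genes were called in males and 0 between the unstressed sexes, and of the other imprinted genes 1 for female minus male and 0 between the unstressed sexes. Between the unstressed sexes the hypothalamic term called *Mirg* and the red blood cell term *Magel2* in place of *Zdbf2*. The hypothalamic term left 1 of the 9 genes and 1 other imprinted gene between the stressed sexes, and the choroid plexus term left 3 other imprinted genes for female minus male and 1 between the unstressed sexes. The red blood cell term, added later, left 2, 2 and 0 of the 9 genes in males, for female minus male and between the stressed sexes, and 1, 2 and 0 of the other imprinted genes. Under it signs changed in males for *Meg3* (0.21), *Magel2* (0.32), *Asb4* (0.34) and *Zim1* (0.55), for female minus male in *Magel2* (-0.56), *Asb4* (-0.63) and *Zim1* (-0.85), and between the stressed sexes in *Gnas* (-0.036) and *Zim1* (-0.20); the cause was not tested. In the 7 libraries low in cortical markers, also added later, the 9 genes had 1 call between the unstressed and 0 between the stressed sexes, and the other imprinted genes 2 for female minus male and 0 between the unstressed sexes.

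Fits without one library gave 5 to 8, 0 to 1, 4 to 6, 1 to 2 and 1 to 3 called among the 9 genes, 3 to 6, 0 to 0, 2 to 8, 1 to 5 and 3 to 6 among the other imprinted genes, and 0 to 1, 0 to 2, 0 to 2, 0 to 2 and 0 to 1 among the cluster miRs. The 5 in males came without unstressed male replicate 3 and the 1 in females, *Peg10*, without unstressed female replicate 2; between the stressed sexes the 1 came without stressed female replicate 3. Correlations of the deviations of same-numbered mRNA libraries ran from -0.0291 to 0.315, and in no comparison were all 3 pairs over 0.1. The 0.315 was that of replicate 3 of the male groups, the libraries highest in *Meg3* and *Mirg*. The same pair had 0.313 in small RNA. In small RNA they were over 0.1 for all 3 pairs in females (0.112 to 0.312) and in no other comparison. With the replicate number as a block 7, 0, 4, 2 and 3 of the 9 genes and 0, 0, 1, 0 and 0 cluster miRs were called, as without it. *Cdkn1c*, with a mean of 75.5 reads, is the gene most limited by depth.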

Other observations

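*Eif2c2*, which encodes the Argonaute protein that slices targets of miRs, and *H13*, genes of other imprinted domains, were lower in stressed males at an adjusted p under 0.05 without reaching the fold threshold of 1.3. The log2 fold change of *Eif2c2* was -0.34 (SE 0.06, adjusted p = 0.00853, limma) and that of *H13* -0.26 (SE 0.06, adjusted p = 0.0267, limma). Both were named after their values were seen.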
